A study of Mus musculus with 6 samples.

Results

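The CD34+Flt3- fraction of mouse LSK cells was set against the CD34-Flt3- and CD34+Flt3hi fractions that flank it. Values were log2 intensities, with 1 probe set per gene, the one with the highest mean over all 6 arrays. Genes were taken where both CD34+Flt3- arrays lay above, or both below, all 4 arrays of the other fractions. Of 18193 genes, 2520 met this rule, 925 above and 1595 below. The difference quoted throughout, unless another is named, is the CD34+Flt3- mean minus the average of the CD34-Flt3- and CD34+Flt3hi means. Meeting the rule is how the genes were chosen and is no result by itself.

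LSK cells are the lineage-negative, Kit+ and Sca1+ cells of bone marrow. The series asked which expression changes go with the functional differences between LSK fractions divided by CD34 and Flt3. Each of the 3 groups, CD34-Flt3-, CD34+Flt3- and CD34+Flt3hi, had 2 arrays of total RNA from cells sorted from the marrow of mice 10 to 14 weeks old. Neither strain, genotype, sex nor any treatment was stated. Nothing says that both arrays of a group are separate animals, cultures or sorting runs, so every p-value here measures no more than array-to-array spread, which could be technical. Each title ends in a code that is not explained; the 3 codes are written as A, B and C. Code A marked 1 array of each group (replicate 2 of each), code B marked CD34+Flt3- replicate 1 and CD34+Flt3hi replicate 1, and code C marked CD34-Flt3- replicate 1.

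In adult mouse marrow the CD34-Flt3- fraction of LSK cells is known for long-term repopulating stem cells. The CD34+Flt3- fraction is known for stem and multipotent cells with short-term repopulating activity. CD34+Flt3hi cells are known as multipotent progenitors primed for the lymphoid and granulocyte-monocyte lineages. Along this order cells are generally described as losing stem cell properties and gaining lineage potential, so a gene at its highest or lowest in the middle fraction departs from a steady course between the outer ones.

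Array values are given below as replicate 1 and replicate 2 of CD34-Flt3-, then of CD34+Flt3-, then of CD34+Flt3hi cells, and group means in the same order. The transcripts of the sorting antigens followed the labels. Cd34 stood at 8.78 and 9.45 in the CD34-Flt3- group, 10.51 and 10.68 on both middle arrays, and 11.35 and 11.34 in the CD34+Flt3hi group. Flt3, the receptor tyrosine kinase used for the sort, stood at 7.65 and 9.16, then 8.84 and 9.81, then 12.01 and 11.75, so that both fractions labelled Flt3- overlapped and the Flt3hi fraction lay apart. Slamf1, a stem cell surface receptor, was at 7.33 and 7.36, then 5.80 and 5.17, then 3.98 and 4.50. Cd48, an adhesion receptor of more mature progenitors, was at 7.07 and 7.26, then 9.36 and 9.75, then 10.67 and 10.30. These 4 genes and Kit all had their CD34+Flt3- mean between the outer means, and none of the 5 met the rule. No label names Slamf1 or Cd48 as part of the sort. Ly6a, which encodes Sca1, was not among the genes read from a probe set with a single symbol.

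Over all 45101 probe sets, array medians lay between 29.7 and 31.4 linear units. Replicates correlated at 0.969 in the CD34-Flt3- group, 0.981 in the middle group and 0.990 in the CD34+Flt3hi group. CD34-Flt3- replicate 1 correlated slightly more with CD34+Flt3- replicate 1 (0.971) than with its own replicate. Values on CD34+Flt3- replicate 2 had the lowest upper quartile, 6.58 against 6.68 to 6.92 on the other arrays. The ratio of 3' to 5' actin signal ranged from 3.25 to 5.55 and that of Gapdh from 5.04 to 8.42, with CD34+Flt3- at 3.25 and 4.44 for actin and 6.83 and 7.50 for Gapdh, inside the range of the outer arrays in both cases but for the lowest actin ratio. A log2 of 4.50 is called background here. It is the level under which 90% of the values of 27 unspiked bacterial controls lay.

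With limma, a linear model with a moderated variance, 5 genes passed an adjusted p of 0.05 on the contrast against the average of both outer groups, 0.0275% of those tested. Ms4a3 and Cpa3 rose (0.011%), and Dntt, Ctss and Tpm4 fell (0.0165%). This count depends on the title codes, whose meaning is not stated. Of 18193 genes it was 560 when the title code entered the limma fit as a block, which leaves 1 residual degree of freedom. It was 71 when the block set only code A apart from B and C. The codes were not taken to pair the samples. Of the 19 genes named below for their differences that did not pass, 10 passed under both blocks: Siglecf and Ms4a2 on the higher side, and Cd74, Esr1, Fmnl2, Hdac9, Il6st, Slc49a4, Sqor and Tmcc3 on the lower side. All 19 were chosen from these same arrays for large differences, so these passes are no separate support. Adjusted p-values given below for the 19 are those without a block unless stated. At an unadjusted p under 0.05 there were 509 higher genes (2.8%) and 1182 lower genes (6.5%). A stricter test took the larger p of the separate comparisons with each outer group, and with limma no gene passed an adjusted p of 0.05 there, against 236 at an unadjusted p under 0.05, of which 70 were higher (0.385%) and 166 lower (0.912%). Taken singly, the comparison with CD34-Flt3- cells called 382 genes (2.1%) and that with CD34+Flt3hi cells 111 (0.61%). Of these, 5 genes passed both in the same direction, Ms4a3 and Ms4a2 higher (0.011%) and Ctss, Esr1 and Slc49a4 lower (0.0165%). These comparisons share the CD34+Flt3- arrays. In simulated data of this size, changes of log2 1, 2 and 3 on the contrast were recovered for 14.7%, 72.7% and 92.4% of genes.

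The rule itself took 925 genes above (5.08% of all genes) and 1595 below (8.77%). Most of these margins were small: the gap between the CD34+Flt3- arrays and the nearest outer array had a median of 0.09 for the genes above and 0.10 for those below, and reached 1.55 and 1.23. The split between higher and lower genes depended on the scaling, since 36.7% of the genes beyond were above, 53.5% (1281 above, 1114 below) after quantile normalization was repeated, and 41.0% (1021 and 1471) after median centring. The median difference of all genes was -0.07, 0.00 and -0.04 in these settings. Of the genes above, 92.3% had outer means within 0.5 of each other, as had 86.9% of those below and 75.2% of all genes. Both differences reached 2-fold for 6 genes above (0.033%) and 25 below (0.137%), and 232 of the genes above and 208 of those below were under background in every group.

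**Figure D1:**
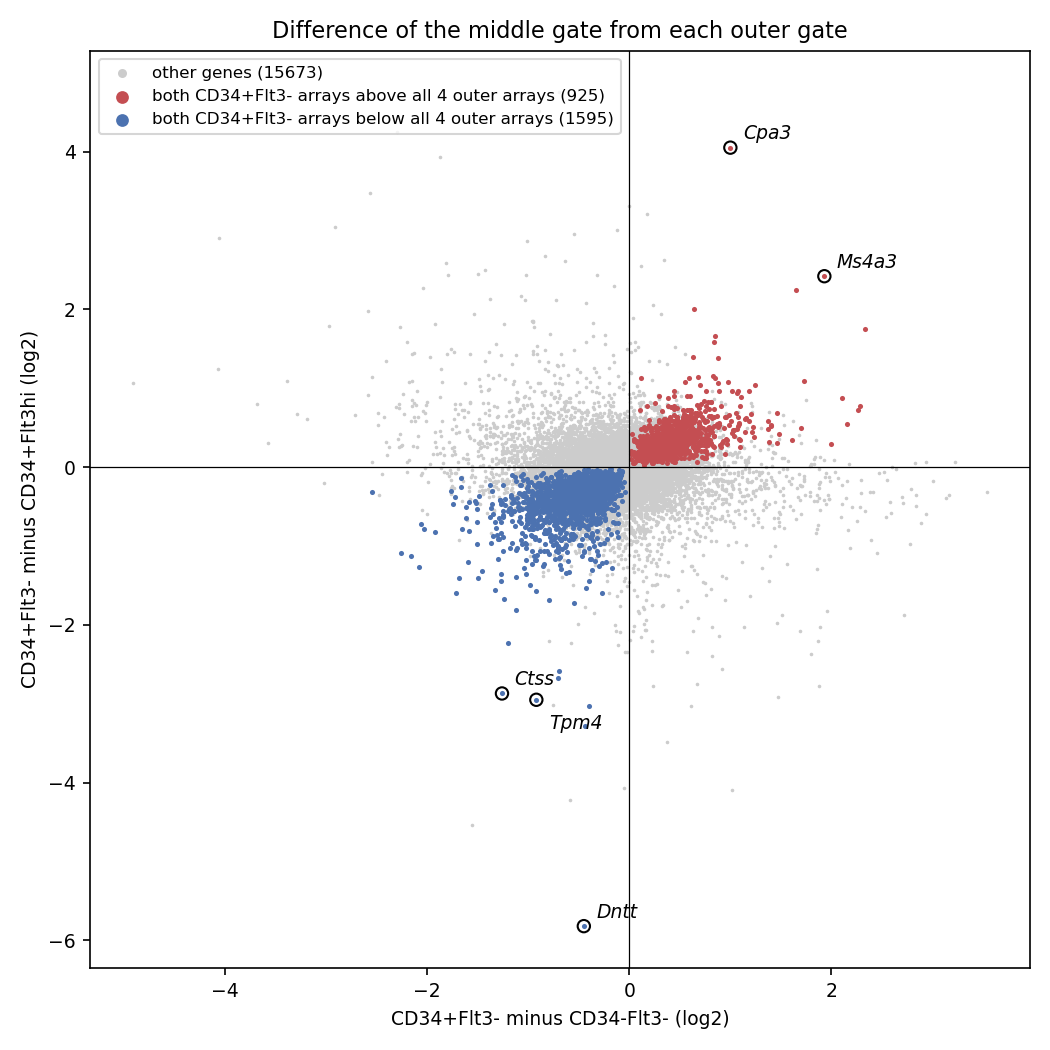
Each point is 1 of 18193 genes, with the CD34+Flt3- mean minus the CD34-Flt3- mean on the x axis and minus the CD34+Flt3hi mean on the y axis, both in log2. Red points (925) are genes with both CD34+Flt3- arrays above all 4 outer arrays, blue points (1595) those with both below, and circles mark the 5 genes past an adjusted p of 0.05; Dntt, at -5.82 on the y axis, is only -0.45 on the x axis.

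Ms4a3 had the widest margin of the genes above. It encodes a membrane protein of granulocyte and monocyte progenitors. Its log2 intensity was 5.70 and 5.28 in the CD34-Flt3- group, 7.25 and 7.59 on the middle arrays, and 4.99 and 5.01 in the CD34+Flt3hi group. Both middle arrays thus stood well above the other 4, and the outer groups lay near each other. The difference was 2.17 ± 0.24 (SE, adjusted p = 0.0229 with limma), made of 1.93 against CD34-Flt3- (adjusted p = 0.0171) and 2.42 against CD34+Flt3hi (adjusted p = 0.00565), or 3.81-fold and 5.35-fold. Among the code A arrays alone it was 2.44. In these bulk samples, more cells of a type that expresses a gene and more RNA of it per cell cannot be told apart.

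Cpa3, the carboxypeptidase of mast cell granules that is also expressed in early progenitors, was the other gene that rose. It was at 7.79 and 7.37, then 8.88 and 8.29, then 4.91 and 4.17 in the same order of groups. The middle arrays were the highest, but the CD34-Flt3- arrays were nearer to them than to the CD34+Flt3hi arrays. The difference of 2.53 ± 0.30 (SE, adjusted p = 0.0303 with limma) came mostly from the comparison with CD34+Flt3hi cells (4.05, adjusted p = 0.00129), while that with CD34-Flt3- cells was 1.0 (adjusted p = 0.18). The code A arrays alone gave 2.52. Without the intensity trend in limma the adjusted p of Cpa3 was 0.0517.

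The promoters of both genes are shown because these are the genes that rose. They are RefSeq sequences on GRCm38.p6, 250 bases before to 50 after the start, with the matches to 3 short motifs on either strand in capitals. The motif GATAA, the known core for GATA family factors, is held by 25.4% of 32851 promoters of this length. The motif CCAAT, known for binding of nuclear factor Y, is held by 37.4%. The motif GAGGAA, known for binding of PU.1, is held by 28.3%. The Ms4a3 window (chr19:11640802-11641101, minus strand) holds CCAAT and GAGGAA once each, and the Cpa3 window (chr3:20242132-20242431, minus strand) holds GATAA once.
Ms4a3: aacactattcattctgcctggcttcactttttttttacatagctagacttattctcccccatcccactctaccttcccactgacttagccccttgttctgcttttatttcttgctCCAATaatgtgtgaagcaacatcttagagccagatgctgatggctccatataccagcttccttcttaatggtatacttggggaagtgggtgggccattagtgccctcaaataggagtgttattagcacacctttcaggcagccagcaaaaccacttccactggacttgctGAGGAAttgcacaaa
Cpa3: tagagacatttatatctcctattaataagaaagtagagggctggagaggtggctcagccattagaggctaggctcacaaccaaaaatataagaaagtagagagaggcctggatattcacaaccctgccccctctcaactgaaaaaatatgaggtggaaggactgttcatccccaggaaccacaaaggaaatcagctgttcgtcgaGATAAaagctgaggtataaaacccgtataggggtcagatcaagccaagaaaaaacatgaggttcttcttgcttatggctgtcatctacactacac

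Genes of granulocytes and mast cells filled the next places. Siglecf, a sialic acid receptor of eosinophils, was at 3.83 and 3.49, then 6.64 and 5.32, then 4.49 and 3.99. Ms4a2, the beta chain of the high-affinity IgE receptor, was at 3.98 and 3.93, then 6.25 and 4.95, then 3.28 and 3.45. For both, the outer arrays lay at or under background and the CD34+Flt3- arrays above it, replicate 1 more than replicate 2. Counted from background, Siglecf was at least 2.79-fold and Ms4a2 at least 2.14-fold higher than in either outer group. Neither passed the contrast (2.04 ± 0.34 SE, adjusted p = 0.138, and 1.94 ± 0.31 SE, adjusted p = 0.136, limma), although Ms4a2 differed from each outer group (adjusted p = 0.0485 and 0.0234) and Siglecf from CD34-Flt3- cells (adjusted p = 0.0211). A dimmer Ms4a2 probe set, under background, gave -0.14.

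Of 30 measured mast cell, basophil and eosinophil genes, 10 lay above all outer arrays and none below, against 5.08% and 8.77% of all genes, with a median difference of 0.15 against -0.07. That median was 0.12 without CD34-Flt3- replicate 1, 0.15 without CD34+Flt3hi replicate 2 and 0.17 without CD34+Flt3- replicate 1. It was 0.33 without CD34+Flt3- replicate 2, 0.30 without CD34-Flt3- replicate 2 and 0.23 without CD34+Flt3hi replicate 1. Only Cpa3 passed the contrast. This list and those below were written with earlier results of these data known, so their shares are no separate support. The count of list genes above was 9 after repeated quantile normalization and 7 after median centring, with none below in either. Over all genes the counts above were then 1281 and 1021 instead of 925. Besides the 3 genes above, Gzmb, a serine protease of cytotoxic granules, was at 4.52 and 4.49, then 4.74 and 6.03, then 4.34 and 4.30, so its difference of 0.97 ± 0.32 (SE, adjusted p = 0.431, limma) rested on replicate 2. Il3ra, the alpha chain of the interleukin-3 receptor, was at 5.60 and 5.90, then 6.16 and 6.24, then 5.97 and 5.57. Fcer1g, Hdc, Mcpt4 and Il6 met the rule by gaps of 0.01 or less, and Fcer1a by 0.07 with all but 1 array under background.

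Several members of the same list were not highest in the middle. Gata2, a transcription factor of stem cells and mast cells, had means of 11.69, 11.14 and 8.19 from CD34-Flt3- to CD34+Flt3hi cells. Slc18a2, the vesicular monoamine transporter, stood at 9.23, 8.53 and 3.78 in the same order. The eosinophil granule genes Prg2 (3.77, 3.84 and 3.67) and Epx (4.38, 4.27 and 4.37) were under background in every group. The mast cell proteases Cma1 (4.83, 4.97 and 4.70) and Tpsb2 (5.21, 4.99 and 5.07) lay above it, with overlapping groups. None of these 4 met the rule, unlike the mast cell granule genes Cpa3 and, by its small gap, Mcpt4. The summed linear level of the whole list was 17010 to 20090, 15340 to 22400 and 12810 to 12850 in the order CD34-Flt3-, CD34+Flt3- and CD34+Flt3hi, so the ranges of the first of these groups and the middle one overlapped.

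Among the 32 measured genes of the neutrophil granule list, 4 lay above (Ms4a3, Nkg7, Elane and Calr) and 1 below (Ltf). These are 12.5% and 3.12% beside 5.08% and 8.77% of all genes. The list is not confined to granule proteins of neutrophils, as its members Ms4a3 and Calr show. Its median difference was 0.09 (0.10 to 0.15 without 1 array, the highest without CD34+Flt3hi replicate 1). Nkg7, a granule membrane protein, was at 7.63 and 8.23, then 10.10 and 10.07, then 9.52 and 9.56. It differed from CD34-Flt3- cells (2.15, adjusted p = 0.0088, limma) but by only 0.55 from CD34+Flt3hi cells (adjusted p = 0.752). Elane, neutrophil elastase, was at 5.0 and 4.45, then 5.72 and 5.44, then 4.59 and 4.31, a difference of 0.99 ± 0.24 (SE, adjusted p = 0.309, limma) and at least 2.05-fold over CD34+Flt3hi cells. Calr lay above by 0.05 and Ltf below by 0.05, the latter under background.

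The primary granule genes Mpo and Ctsg took another course than Elane. Mpo, myeloperoxidase, had means of 8.51, 11.34 and 11.29, and Ctsg, cathepsin G, 6.41, 9.43 and 9.60, so that the CD34+Flt3- and CD34+Flt3hi means were close together and the CD34-Flt3- mean was apart. Prtn3, proteinase 3, stood at 10.57, 10.81 and 10.29, with the middle mean highest, but did not meet the rule. Of genes of later neutrophils, S100a8 (4.19, 4.22 and 4.23), S100a9 (4.08, 4.28 and 4.31) and Lcn2 (3.96, 4.0 and 3.93) were under background in all groups, while Camp (5.21, 5.33 and 5.36) lay above it at similar levels.

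**Figure D2:**
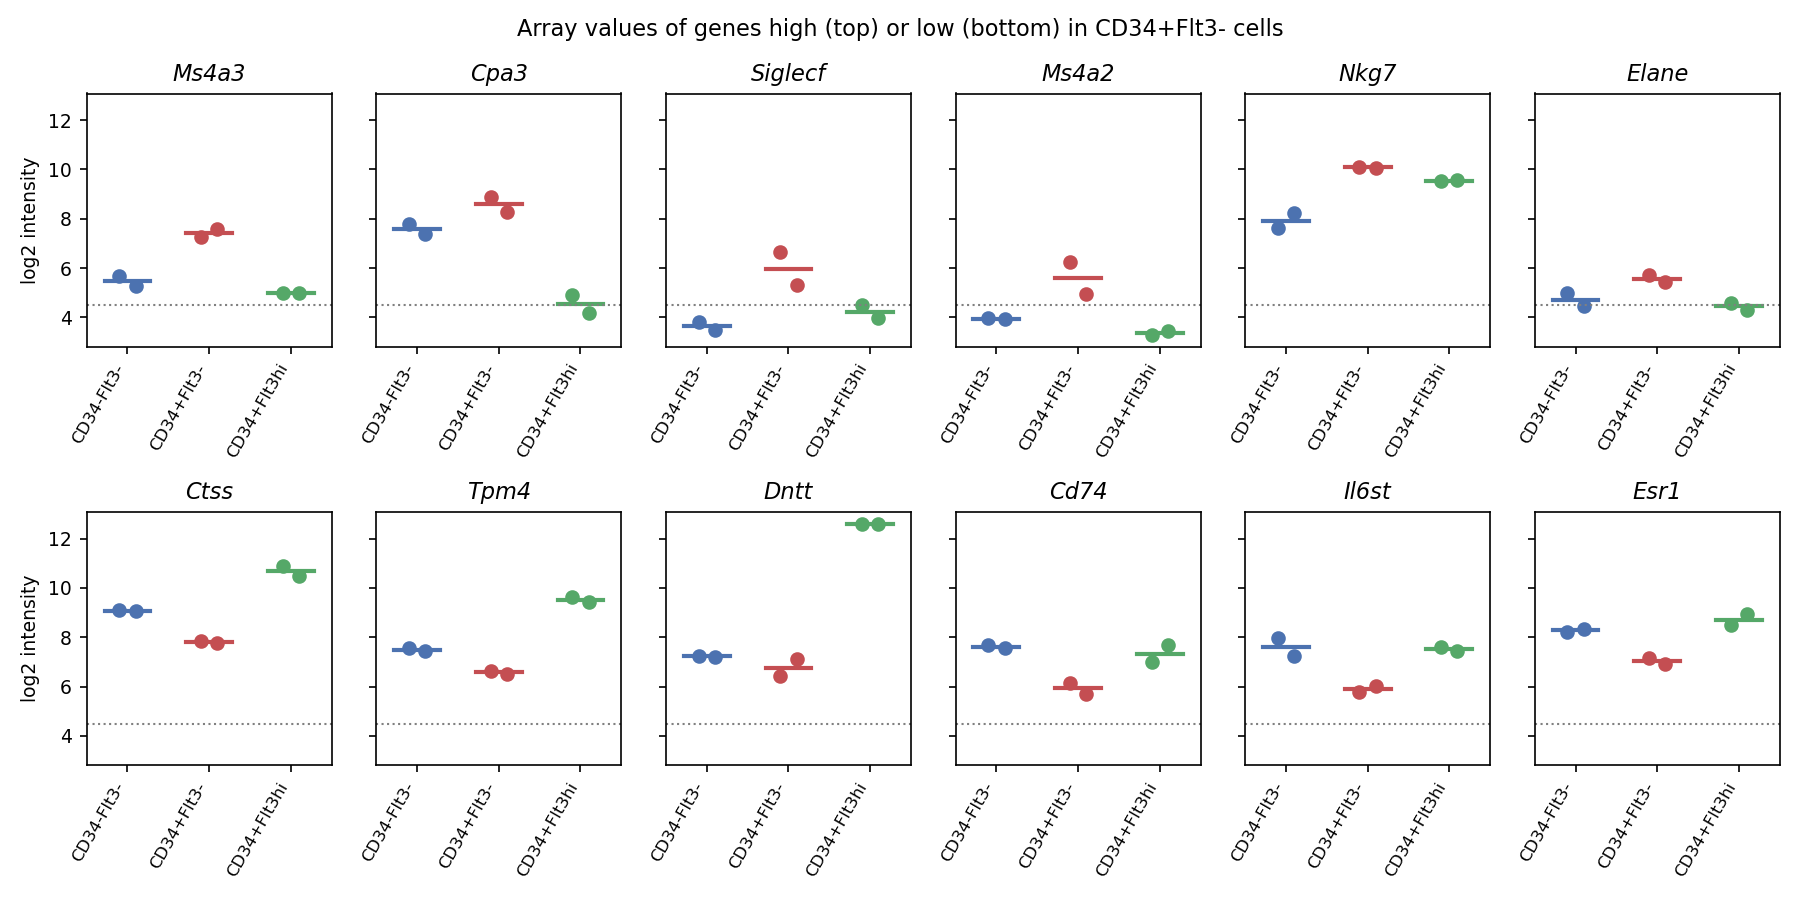
Points are the log2 intensities of the 2 arrays of each group for 6 genes high (top) and 6 low (bottom) in CD34+Flt3- cells, short lines are group means, and the dotted line is background at 4.50. The Ms4a3 arrays of the middle group reach 7.25 and 7.59 against at most 5.70 elsewhere, whereas the middle Dntt arrays lie close to those of CD34-Flt3- cells.

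The remaining higher genes named by the size of their smaller difference were of mixed function and none passed the contrast. Fgf3, a fibroblast growth factor, was at 5.83 and 5.52, then 6.96 and 6.34, then 5.82 and 5.33, a difference of 1.03 ± 0.28 (SE, adjusted p = 0.367, limma). A dimmer Fgf3 probe set, looked up after the values were seen, was at 4.19 and 4.92, then 7.29 and 6.69, then 4.27 and 4.14. Its difference was 2.61, with an adjusted p of 0.03 in a limma fit of all probe sets singly, and a further one was also above all outer arrays, by 1.06 on average. Fgf3 was thus highest in CD34+Flt3- cells on all 3 probe sets above background.

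Srr, serine racemase, showed the opposite among its probe sets. The brightest was at 6.72 and 6.88, then 7.71 and 9.35, then 7.41 and 7.47, with replicate 2 of the middle group far above replicate 1. The next brightest gave -0.16 and none of the other probe sets met the rule. Amigo2, an adhesion molecule, had a difference of 1.14 ± 0.30 (SE) on its brightest probe set but -0.33 on the next, and Ptprk, a receptor tyrosine phosphatase, 1.01 and -0.17. Bpnt1, a bisphosphate nucleotidase, gave 0.99 and -0.22. Tuba3b (1.07), Tent5a (1.02) and Zfp105 (0.93) completed the 12, with adjusted p-values of 0.367, 0.455 and 0.235 in limma. Both outer Zfp105 means were under background, and counted from it the middle was at least 1.18-fold higher than either. For genes with a second probe set above background, 30 of 232 above genes were above on that one too, or 12.9% beside 4.72% of all such genes, and 130 had a positive difference on it, or 56.0% beside 40.1%.

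On the lower side, Ctss had the smallest adjusted p after Dntt and differed from both outer groups. Cathepsin S is the protease that trims the invariant chain during MHC class II antigen presentation. Ctss was at 9.09 and 9.06, then 7.85 and 7.78, then 10.89 and 10.47. No arrays of different groups overlapped, and the middle arrays were lowest. The difference was -2.06 ± 0.20 (SE, adjusted p = 0.0146 with limma), with -1.26 against CD34-Flt3- (adjusted p = 0.031) and -2.87 against CD34+Flt3hi cells (adjusted p = 0.00129), which is 2.4-fold and 7.29-fold lower. The code A arrays alone gave -1.98.

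Tpm4, a tropomyosin of the actin cytoskeleton, was at 7.57 and 7.43, then 6.65 and 6.50, then 9.62 and 9.42. It was lowest in the middle and highest in CD34+Flt3hi cells, with a difference of -1.94 ± 0.22 (SE, adjusted p = 0.0229 with limma). Against CD34-Flt3- cells alone the difference was -0.92 (adjusted p = 0.0967), and against CD34+Flt3hi cells -2.95 (adjusted p = 0.00129). The code A arrays gave -1.93.

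Dntt, the terminal transferase of early lymphoid cells, was at 7.26 and 7.20, then 6.44 and 7.11, then 12.59 and 12.61. The CD34+Flt3hi arrays stood far above all others, and the middle arrays lay below CD34-Flt3- by a gap of only 0.09. Its difference of -3.14 ± 0.23 (SE, adjusted p = 0.00211 with limma) was that from CD34+Flt3hi cells (-5.82, adjusted p = 2.28e-05), while that from CD34-Flt3- cells was -0.45 (adjusted p = 0.429). A second Dntt probe set, at 6.38 and 7.10, then 6.12 and 6.08, then 11.17 and 11.34, also met the rule, with -0.64 against CD34-Flt3- and -5.16 against CD34+Flt3hi cells. A dimmer one, at 4.72 and 4.58, then 4.75 and 5.01, then 9.12 and 9.19, did not, with 0.23 and -4.28. On each of them the difference from CD34+Flt3hi cells was the larger.

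Of these 5 genes, Dntt passed without each of the 6 arrays in turn (adjusted p from 0.000178 to 0.0473, limma). Ms4a3, Cpa3, Ctss and Tpm4 passed without either CD34-Flt3- array but lost the call without any 1 of the other 4. Without CD34+Flt3- replicate 1 their adjusted p-values were 0.248, 0.347, 0.248 and 0.248, and without replicate 2 they were 0.315, 0.205, 0.186 and 0.249. Without CD34+Flt3hi replicate 1 they were 0.106, 0.0509, 0.0812 and 0.151, and without replicate 2 they were 0.161, 0.161, 0.113 and 0.161.

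Besides Ctss, 4 genes of class II antigen presentation met the rule on the lower side, and none of them passed the contrast. Cd74, the invariant chain, was at 7.69 and 7.56, then 6.16 and 5.70, then 7.0 and 7.68. H2-Aa, a class II alpha chain, was at 10.35 and 10.52, then 8.41 and 8.62, then 8.79 and 9.87. H2-Eb1, a class II beta chain, was at 8.50 and 8.12, then 6.73 and 6.72, then 7.16 and 7.91. In each the CD34-Flt3- arrays were high, the middle arrays low, and the CD34+Flt3hi arrays between or level with the CD34-Flt3- arrays, with replicate 1 nearer the middle group.

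Cd74 had a difference of -1.55 ± 0.27 (SE, adjusted p = 0.145, limma), H2-Aa of -1.37 ± 0.28 (SE, adjusted p = 0.238) and H2-Eb1 of -1.20 ± 0.27 (SE, adjusted p = 0.282). Against CD34-Flt3- cells alone they were lower by more than the spread, Cd74 at -1.69 (adjusted p = 0.0306), H2-Aa at -1.92 (adjusted p = 0.022) and H2-Eb1 at -1.59 (adjusted p = 0.0365). Against CD34+Flt3hi cells the differences were -1.41, -0.82 and -0.81, with adjusted p-values of 0.119, 0.637 and 0.597. H2-Ab1, the partner beta chain of H2-Aa, was at 8.48 and 8.94, then 7.74 and 8.11, then 8.34 and 8.66.

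The list of MHC class I and class II genes also holds Ctss and Cd74, which are not MHC genes. Of its 14 measured members, 5 lay below (Ctss, Cd74, H2-Aa, H2-Eb1 and H2-Ab1) and none above, beside 8.77% and 5.08% of all genes. The median difference was -0.38, and -0.09 without CD34+Flt3- replicate 2, when 5 still lay below. Over all genes 3077 lay below without that array, instead of 1595. After repeated quantile normalization the count below on the list was 3, and it was 5 after median centring. Over all genes these counts were 1114 and 1471. The class I genes H2-K1 and H2-D1 had means of 13.50, 13.12 and 13.17, and of 12.88, 12.35 and 12.38, so that the CD34+Flt3- and CD34+Flt3hi means were nearly level. Ciita, the class II transactivator, was at 3.91, 4.37 and 4.56, about background, and H2-DMa, the chaperone of class II loading, at 9.03, 9.69 and 9.81, so that neither was lowest in the middle.

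The promoter of Ctss, which fell, is shown, but not those of Dntt and Tpm4, which also fell. Those of H2-Aa and H2-Eb1 are shown as class II chains that met the rule and were lower than in CD34-Flt3- cells, as was Cd74, which is not shown. The printed windows are marked as before. They are Ctss (chr3:95526536-95526835, plus strand), H2-Aa (chr17:34287774-34288073, minus strand) and H2-Eb1 (chr17:34305617-34305916, plus strand). Ctss holds GAGGAA on each strand, H2-Aa holds CCAAT once, and H2-Eb1 holds CCAAT on each strand and GATAA once.
Ctss: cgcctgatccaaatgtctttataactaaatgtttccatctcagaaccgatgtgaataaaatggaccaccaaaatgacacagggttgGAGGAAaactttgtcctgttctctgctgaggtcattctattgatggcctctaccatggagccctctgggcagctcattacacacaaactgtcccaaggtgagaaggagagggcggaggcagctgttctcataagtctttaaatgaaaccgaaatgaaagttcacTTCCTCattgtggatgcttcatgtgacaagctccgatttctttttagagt
H2-Aa: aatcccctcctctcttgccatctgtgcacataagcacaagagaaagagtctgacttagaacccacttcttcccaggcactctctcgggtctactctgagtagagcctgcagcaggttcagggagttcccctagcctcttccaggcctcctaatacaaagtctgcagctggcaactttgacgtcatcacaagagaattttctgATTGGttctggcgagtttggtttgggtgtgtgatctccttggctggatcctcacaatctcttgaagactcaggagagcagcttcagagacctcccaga
H2-Eb1: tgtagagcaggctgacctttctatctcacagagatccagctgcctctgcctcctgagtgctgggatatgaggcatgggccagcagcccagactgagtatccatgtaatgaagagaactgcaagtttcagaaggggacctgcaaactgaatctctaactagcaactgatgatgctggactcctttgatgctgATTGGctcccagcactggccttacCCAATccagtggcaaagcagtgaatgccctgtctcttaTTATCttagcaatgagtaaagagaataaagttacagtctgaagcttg

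Of 40 measured lymphoid priming genes, 9 lay below (22.5%, beside 8.77% of all genes) and none above (beside 5.08%). This list too was written with earlier results of these data known. The median difference was -0.56, and Dntt passed the contrast. Repeated quantile normalization gave 9 below and 1 above, and the mean of all probe sets 5 below. Over all genes the counts below were then 1114 and 1493 instead of 1595. The lymphoid genes below fell into kinds that the rule does not separate. Arpp21, a phosphoprotein gene of early lymphocytes, was at 3.92 and 3.87, then 3.69 and 3.30, then 6.25 and 6.80, and Emp1, a membrane protein, at 4.89 and 4.93, then 4.29 and 4.65, then 7.30 and 8.19. These resembled Dntt in that the outer groups were far apart and the middle was close to CD34-Flt3-. A dimmer Arpp21 probe set above background gave 0.26 against CD34-Flt3- and -1.22 against CD34+Flt3hi cells, and a dimmer Emp1 probe set 0.13 and -0.12. Neither met the rule. Notch1, the receptor that directs T cell fate, was at 8.27 and 8.06, then 7.22 and 7.71, then 9.95 and 10.15 (difference -1.65 ± 0.23 SE, adjusted p = 0.0775, limma). A dimmer Notch1 probe set, at 6.20 and 6.25, then 5.96 and 6.42, then 7.45 and 7.58, did not meet the rule. It gave -0.04 against CD34-Flt3- and -1.33 against CD34+Flt3hi cells.

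Other lymphoid genes had similar levels in both outer groups. Il7r, the interleukin-7 receptor, was at 5.68 and 5.21, then 4.41 and 4.44, then 5.24 and 6.30, which is at least 1.93-fold lower than in CD34-Flt3- and at least 2.41-fold lower than in CD34+Flt3hi cells, with the middle under background. Gimap6, a GTPase of lymphocytes, was at 9.88 and 9.43, then 8.58 and 7.71, then 8.97 and 9.28. Lsp1, an actin-binding protein of leukocytes, was at 9.42 and 9.71, then 8.56 and 8.91, then 9.41 and 9.73. Mef2c and Bcl11a, transcription factors needed in the lymphoid lineage, had differences of -0.86 and -0.73. The adjusted p-values of these 5 genes ran from 0.28 to 0.401 in limma. Satb1, a chromatin organiser, and Cd52, a leukocyte surface protein, were instead higher in each successive group by their means, at 6.83, 8.30 and 11.20 for Satb1 and 6.76, 8.27 and 10.13 for Cd52.

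**Figure D3:**
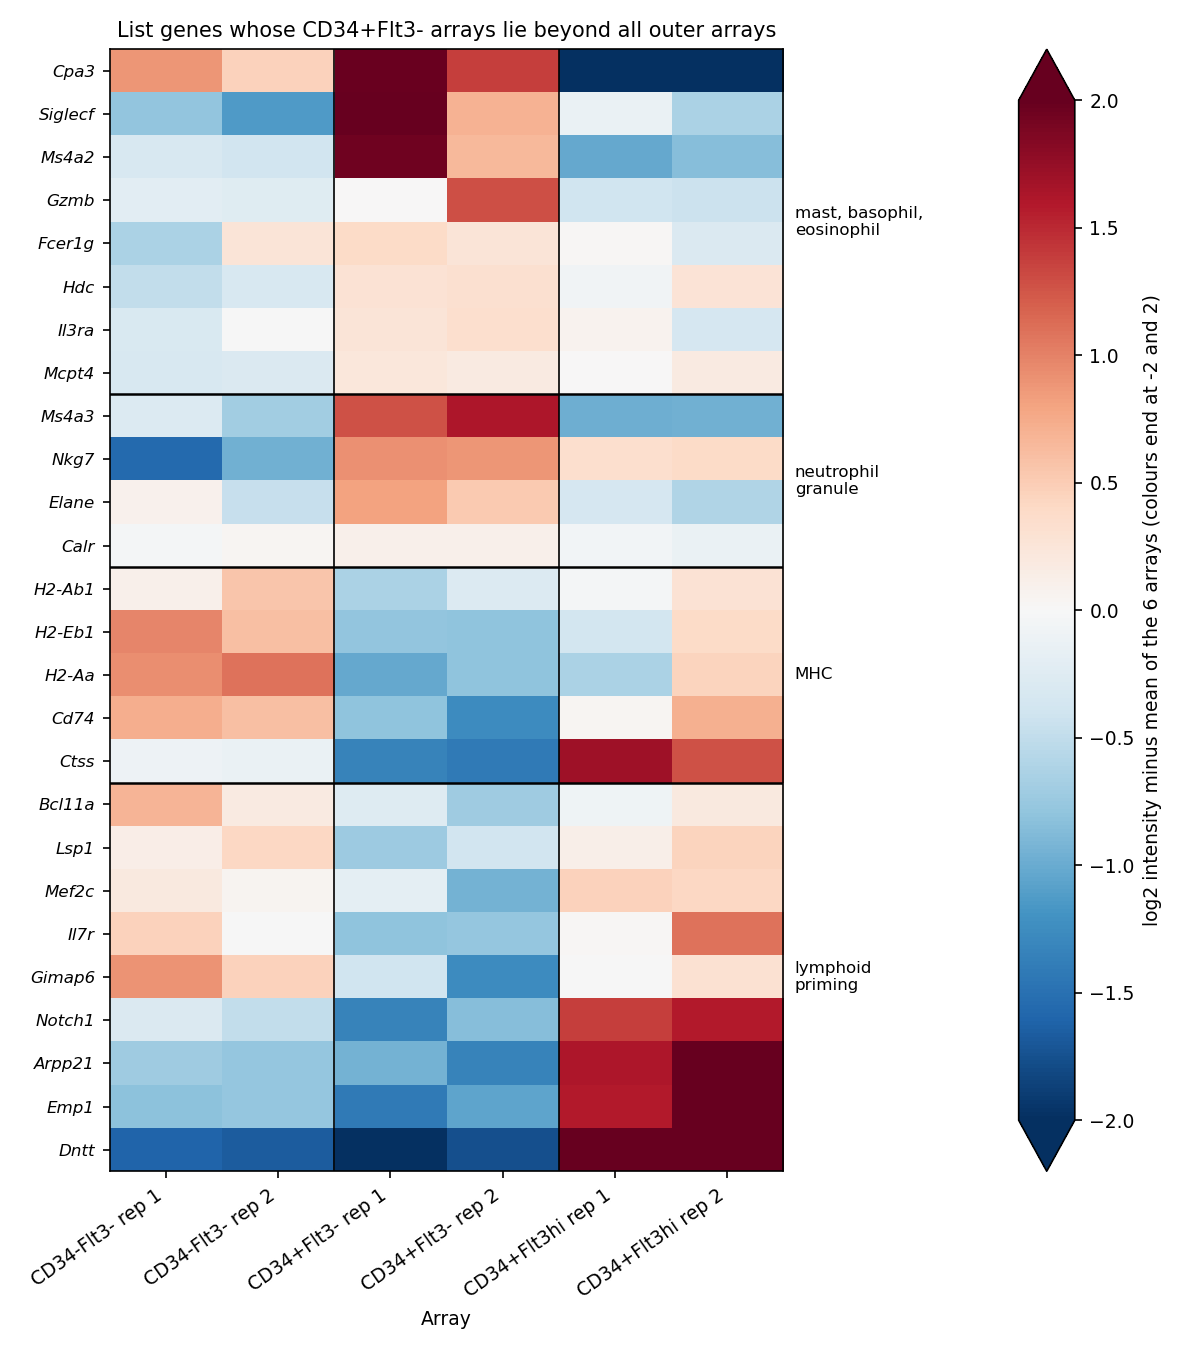
Colours give the log2 intensity of each array minus the mean of the 6 arrays, ending at -2 and 2, for members of 4 gene lists whose CD34+Flt3- arrays lie beyond all outer arrays and with a group mean above background. The middle columns are red in the upper blocks and blue in the lower ones because the rule chose these genes; the outer columns show that the 2 outer groups are alike for Il7r and Lsp1 and far apart for Cpa3, Dntt, Arpp21 and Emp1.

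The other named lower genes were of mixed function, and none passed the contrast. Il6st, the gp130 subunit shared by interleukin-6 family receptors, was at 7.99 and 7.25, then 5.80 and 6.03, then 7.59 and 7.43. The middle arrays lay 1.23 below the nearest outer array, the largest gap among the genes below, and the outer means were 7.62 and 7.51. Its difference was -1.65 ± 0.27 (SE, adjusted p = 0.136, limma), while its other probe sets above background gave -0.02, -0.22 and -0.37.

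Esr1, the estrogen receptor alpha, was at 8.20 and 8.35, then 7.18 and 6.90, then 8.50 and 8.93. Slc49a4, a membrane transporter, was at 6.10 and 5.86, then 4.86 and 4.56, then 6.20 and 6.10. Both were low on each middle array with tight outer groups, and both differed from CD34-Flt3- (adjusted p = 0.0488 and 0.0426, limma) and from CD34+Flt3hi cells (adjusted p = 0.0251 and 0.0496), but not on the contrast (adjusted p = 0.136 and 0.138). A dimmer Esr1 probe set gave -0.73 and did not meet the rule.

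Hdac9, a histone deacetylase, was at 6.11 and 5.57, then 4.23 and 4.46, then 5.67 and 5.83, at least 2.53-fold and 2.38-fold lower in the middle, though its next probe set gave 0.10. Sqor, a mitochondrial sulfide oxidase, was at 8.57 and 7.89, then 6.73 and 5.58, then 7.55 and 7.31. Pik3c2a, a phosphoinositide kinase, had a difference of -1.31 ± 0.32 (SE), and Fmnl2, a formin, of -1.45 ± 0.41 (SE). Tmcc3 had -1.39 ± 0.28 (SE), with its middle mean of 3.52 under background. Counted from background it was at least 1.39-fold lower than in CD34-Flt3- and 1.27-fold lower than in CD34+Flt3hi cells. For these 5 genes the adjusted p in limma ran from 0.138 to 0.379. For genes below with a second probe set above background, 126 of 733 were below on it too, or 17.2% beside 8.53% of all such genes, and 29.6% had a positive difference beside 40.1%.

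Hoxa9, a homeobox gene of stem and progenitor cells, was the most separated of the stem cell transcription factors. It was at 11.45 and 11.05, then 10.48 and 10.25, then 11.24 and 11.36, a difference of -0.91 ± 0.17 (SE, adjusted p = 0.201, limma). A dimmer Hoxa9 probe set gave 0.12. Of 29 such factors, 4 lay below (Hoxa9, Bcl6, Foxo3 and Zfp36l2) and 1 above, Fli1, or 13.8% and 3.45% beside 8.77% and 5.08% of all genes. Fli1 stood at 7.69 and 8.17, then 8.41 and 8.49, then 7.65 and 8.19, while its next probe set gave -0.30. The median difference of the list was -0.28, but -0.03 without CD34+Flt3- replicate 2 and -0.53 without CD34+Flt3- replicate 1.

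Among 36 genes of the Notch, Wnt and TGF-beta pathways, 7 lay below (19.4%, beside 8.77% of all genes) and 2 above (5.56%, beside 5.08%). The median was -0.30, and -0.15 without CD34+Flt3- replicate 2. The low ones included the TGF-beta receptor gene Tgfbr1 and the signal transducers Smad1, Smad2 and Smad4. Smad7, the inhibitor of that pathway, was at 8.01 and 9.07, then 7.18 and 7.40, then 8.14 and 8.58, a difference of -1.16 ± 0.31 (SE, adjusted p = 0.354, limma). Jag2, a Notch ligand, had -0.61 and Notch1 -1.65, or -0.68 on its dimmer probe set, which did not meet the rule. Dtx1, a Notch target, and Lef1, a Wnt effector, instead lay above with differences of 0.47 and 0.28. After repeated quantile normalization 5 genes of the list lay below, beside 1114 of all 18193 genes.

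Chaperone, glycolysis, interferon and amino acid stress genes gave no gene past the contrast, and over all genes more lay below (8.77%) than above (5.08%). Of 29 heat shock and chaperone genes 7 lay below (24.1%) and 2 above, with 2 and 2 after repeated quantile normalization. Of 27 glycolysis and hypoxia genes 6 lay below (22.2%) and 1 above, with 2 and 1 after it. Both lists thus had fewer low members under another scaling, as had all genes together, with 1114 below instead of 1595. Of 37 interferon response genes 5 lay below (13.5%) and none above (4 and 1 after it), with Irf1, an interferon-induced transcription factor, at 10.40 and 11.06, then 9.63 and 9.84, then 10.19 and 10.69. Of 30 amino acid stress and tRNA synthetase genes 6 lay below (20.0%) and 3 above, among the latter the amino acid transporter Slc7a5 (0.83). Of those below, 3 were tRNA synthetases with differences of -0.55 (Nars), -0.41 (Tars) and -0.74 (Cars). After repeated quantile normalization 2 of this list lay below and 4 above, so it too had fewer low members.

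**Figure D4:**
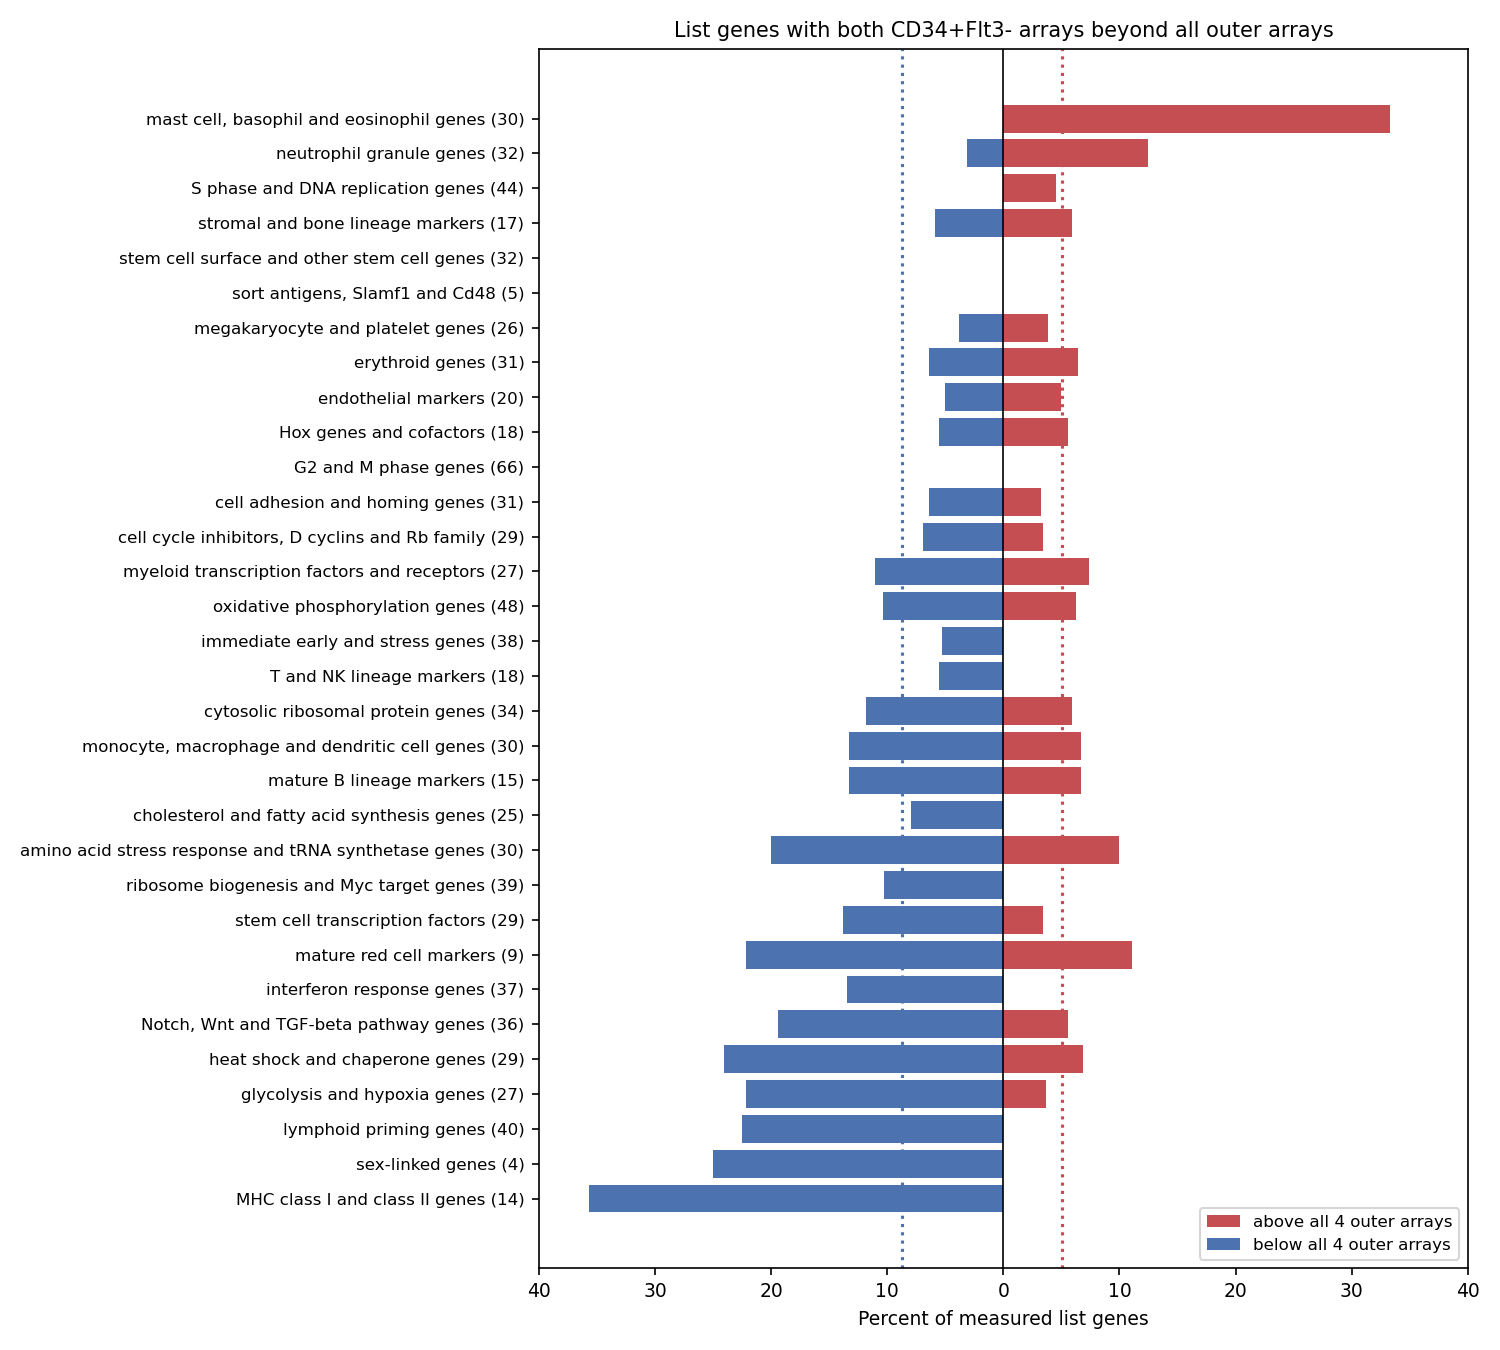
Bars give the percent of measured genes of each list with both CD34+Flt3- arrays above (red, to the right) or below (blue, to the left) all 4 outer arrays, with the number measured in brackets, and dotted lines give the shares over all genes, 5.08% and 8.77%. The mast cell, basophil and eosinophil list reaches 33.3% above and the MHC list, which also holds Ctss and Cd74, 35.7% below. The G2 and M phase, stem cell surface and sort antigen lists (the last with Slamf1 and Cd48) have neither. All lists were written with earlier results of these data known.

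Lists that change strongly between the outer fractions mostly did not contribute. Of 66 G2 and M phase genes none met the rule, and 58 had a CD34+Flt3- mean between the outer means. Their median difference was 1.88 against CD34-Flt3- and -0.26 against CD34+Flt3hi cells, as in the proliferation marker Mki67, with means of 9.55, 11.66 and 11.88. The contrast median of 0.79 for this list (0.47 without CD34-Flt3- replicate 2) goes with middle means near those of CD34+Flt3hi cells and is no sign of genes beyond both groups. Of 44 S phase and replication genes 2 lay above (E2f1 and E2f8, 4.55% beside 5.08% of all genes) and none below (beside 8.77%). After repeated quantile normalization 9 lay above, when 1281 of all 18193 genes did instead of 925. Of 32 stem cell surface and other stem cell genes none met the rule and 27 had their middle mean between the others, such as Procr, the endothelial protein C receptor, at 10.35, 8.20 and 7.43, and Vwf, von Willebrand factor, at 10.95, 6.89 and 3.98. Over all genes, 7222 of 18193 lay between.

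Megakaryocyte genes gave 1 above and 1 below of 26 (3.85% each), and erythroid genes 2 and 2 of 31 (6.45% each). Over all genes the shares were 5.08% above and 8.77% below. Tfrc, the transferrin receptor, was the clearest, at 9.63 and 8.81, then 8.15 and 8.17, then 8.97 and 9.05, a difference of -0.95 ± 0.25 (SE, adjusted p = 0.348, limma). Of 30 monocyte, macrophage and dendritic cell genes 2 lay above (6.67%) and 4 below (13.3%), the latter including Ctss and Cd74, which the MHC list also holds. Csf1r and Irf8, a receptor and a transcription factor of monocyte and dendritic cell development, were highest in CD34+Flt3hi cells, at means of 6.07, 7.20 and 9.23 and of 5.98, 6.35 and 9.84.

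Markers of cells that the sort should remove were measured beside these lists. Beside 5.08% above and 8.77% below of all genes, 1 of 15 B lineage markers lay above (6.67%) and 2 below (13.3%). Of 18 T and NK markers 0 lay above and 1 below (5.56%), and of 20 endothelial markers 1 and 1 (5.0% each). Of 17 stromal and bone markers 1 lay above and 1 below (5.88% each), and of 9 mature red cell markers 1 (11.1%) and 2 (22.2%). The summed linear levels were 4113 to 6180, 2672 to 3733 and 3939 to 4020 for B lineage genes in the order CD34-Flt3-, CD34+Flt3- and CD34+Flt3hi. For T and NK genes they were 713 to 844, 785 to 801 and 708 to 710, for endothelial genes 5118 to 5710, 2100 to 2306 and 1809 to 2032, for stromal and bone genes 614 to 819, 804 to 890 and 960 to 996, and for red cell genes 2518 to 2604, 1581 to 2022 and 1827 to 1915. The B lineage sum was thus lowest in the middle, in the direction of the MHC and lymphoid genes, and its part in those results was not tested. The 2 B lineage genes below were Cd24a (-0.56) and Cd79a (-0.49), and the 1 above was Vpreb3 (0.25). Some genes, such as Pax5, are on both the B lineage and the lymphoid priming list. The endothelial list holds Vwf, named above among the stem cell genes and highest in CD34-Flt3- cells. The endothelial sum is therefore no measure of endothelial cells alone. The B cell markers Ms4a1 (4.0, 3.99 and 4.14) and Pax5 (4.69, 4.22 and 4.38) were near or under background in all groups.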

How the data were processed

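The authors deposited 1 table of intensities for 6 Affymetrix expression arrays, taken here as linear RMA signal intensities from their range (6.5 to 24173). RMA is named, without a version, in the submitters' processing notes, and per the labels' protocols the RNA was amplified in 2 rounds. The log2 of these values was used. Of 45101 probe sets, 64 were controls, 34945 carried 1 gene symbol, 932 several and 9160 none. Only those with 1 symbol were used, and symbols were updated through Entrez identifiers, of which 99.1% matched.

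Group means over the 6 arrays were modelled in limma (version 3.58.1, R 4.3.3; intensity trend, 3 residual and 6.86 prior degrees of freedom), two-sided, with Benjamini-Hochberg adjustment over 18193 genes. With 2 arrays against 4, exact permutation can give no p below 0.133. The pipeline was tested on simulated data, where 2.46% of calls were false.

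Named genes were the 12 per direction with the largest smaller-of-both differences, called genes first, above background and without predicted genes, the sort antigens with Slamf1 and Cd48, and up to 4 members per list. The members and the 32 lists were chosen with earlier results of these data known. Alternatives were blocks for the title code, other moderation, array weights, repeated quantile normalization, median centring, a background filter, other choices of probe set and leaving out each array. List counts under them and the joint count of both single comparisons were added after seeing the data. Promoters came from RefSeq, with a match for 23 of 24 named genes. Figures used matplotlib 3.10.9.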

Additional observations from a re-analysis of the deposited data

How the results depend on the processing

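The title codes have no stated meaning and were not taken to pair the samples. Deviations of the code A arrays from their group means correlated at 0.313, 0.0575 and 0.0658 between the groups. With 2 arrays a group, the replicate 1 arrays deviate by the same amounts with the opposite sign and give the same correlations. These values therefore cannot show whether the codes pair the arrays. With the title code as a replicate block, a fit with 1 residual degree of freedom in which code C takes up its lone array, the genes called on the contrast numbered 560 instead of 5, and those beyond both outer groups 3 instead of 0. With code A against the other codes as a block, 71 were called. Array weights gave 8, the next brightest probe set 2 of 9010 genes, and all probe sets singly 11 of 34945. Leaving out 1 array gave 1 to 118 calls, the highest without CD34-Flt3- replicate 1, with 91 without CD34-Flt3- replicate 2 and 3, 2, 1 and 1 without the others, and 0 to 1 beyond both groups. Where a group keeps 1 array, it is assumed to vary like the others.

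Genes above all outer arrays numbered 423 and 1776, and those below 680 and 2829, on the next brightest and on all probe sets. Leaving out 1 array gave 1283 to 2571 above and 2106 to 5179 below, since fewer arrays must be passed. The other settings stayed within 1.5 times of the 925 above and 1595 below.

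Of the values of single genes, 19 turned sign, 17 lost and 113 gained the threshold, and 1615 did neither. With the next brightest probe set, differences were -0.14 for Ms4a2, -0.16 for Srr, -0.33 for Amigo2 (also -0.33 without x and s probe sets), -0.22 for Bpnt1, -0.17 for Ptprk, -0.30 for Fli1, -0.09 for Vcam1 and -0.27 for E2f5. They were 0.10 for Hdac9, 0.08 for Tmcc3, 0.12 for Hoxa9, 0.09 for Bcl6, 0.26 for Cebpg (0.02 with the mean of all probe sets), 0.00 for Emp1, 0.20 for Trat1, 0.28 for P4ha1 and 0.07 for Rps6. The cause was not tested. Having 2 arrays a group limits the precision, and 26.7% of genes had a mean under background.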
